A study of Rattus norvegicus with 62 samples.

Results

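The heat shock chaperones described here are 9 rat genes of the protein folding machinery: Cryab, Hspb1, Hspa8, Dnajb1, Hsph1, Hsp90aa1, Chordc1, Hspd1 and Hspe1. They were followed in rat liver over 14 groups on 62 microarrays. Members were taken by name, as the probe sets annotated with that gene symbol and no other. By that rule 7 of the 9 genes, out of 14217 genes with such a probe set, were represented, by 9 of the 31099 probe sets on the array. All 7 genes passed the filter on low signals. Hspa8 and Hsp90aa1 had probe sets only where their symbol stood beside another one, and these are given separately at the end of the comparison between weeks.

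The livers came from males of the Crj:CD(SD)IGS strain in a 2-stage model of liver tumour formation: an initiator is given first, and a promoter is then given for weeks. As initiator the rats received diethylnitrosamine at 3 mg/kg (DEN3/PB) or 30 mg/kg (DEN30/PB), thioacetamide at 45 mg/kg (TAA/PB), methapyrilene at 100 mg/kg (MP/PB) and acetaminophen at 1000 mg/kg (APAP/PB). Each of these groups then drank water with 500 ppm of phenobarbital, as did the MC/PB group, which had received the methylcellulose vehicle of the initiators. The MC/water group received methylcellulose and plain water. Every rat gave liver tissue at both weeks. The later sample (10w) was taken at the end, after 6 weeks of phenobarbital where it was given, and the earlier one (5w) was the tissue removed at partial hepatectomy, after 1 week of it. All 10w livers were thus taken after that surgery, and age, time after surgery and way of sampling cannot be told apart between the weeks. Within a phenobarbital group the length of phenobarbital treatment cannot be told apart from these either. MC/water livers were sampled at both weeks without it. At each week there were 5 animals for DEN3/PB, for TAA/PB and for MP/PB, and 4 for each of DEN30/PB, APAP/PB, MC/PB and MC/water.

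Heat shock proteins hold unfolded proteins in solution, refold them or pass them on for degradation, and most of their genes are switched on by heat shock factor 1 when unfolded proteins build up. Small heat shock proteins (Cryab, Hspb1) hold, HSP70 (Hspa8) with its J-domain partner Dnajb1 and its exchange factor Hsph1 refolds, HSP90 (Hsp90aa1) with co-chaperones such as Chordc1 finishes client proteins, and Hspd1 with its lid Hspe1 folds proteins in mitochondria. In liver the mitochondrial pair and Hspa8 are made at high level without stress, while small heat shock proteins are usually scarce in hepatocytes.

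The values are MAS5 signals, a linear brightness that the authors scaled to a common mean on every array, and a signal of one probe set says nothing about its level relative to another gene. Differences are of log2(signal + 25), with the standard error, a scale that understates changes of low signals. The number of arrays limits the precision. The trimmed mean of the arrays lay between 500.23 and 500.27. The arrays fell into 2 sets of 30 and 32, read from the data, with 2 to 3 arrays of every group in each. Both samples of every animal were in the same set. The labels do not name these sets, and what sets them apart was not tested. Differences of the members between the sets, averaged over groups, lay between -0.08 (Hspb1) and 0.09 (Hspe1). Hepatocyte markers did not pass the test in any treatment between the weeks (0 of 5), and their summed signal spanned 179800 to 244600 in MC/PB livers at 10w and 201700 to 250600 at 5w.

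The regulatory sequence of the members is shown first. Heat shock factor 1 binds inverted repeats of the unit GAA, written here for 2 units as GAANNTTC and TTCNNGAA, which read the same on both strands. A 3-unit form is GAANNTTC followed by NNGAA, or TTCNNGAA followed by NNTTC. These are each other on the opposite strand, and each contains both 2-unit forms. Of the members, 7 had a promoter window in the RefSeq table (GRCr8 build, 250 bases before to 50 after the gene start), and no window was used for Cryab or Hsp90aa1. GAANNTTC stood in 7 of the 7 windows, against 8.59% of 33469 windows of that length, and TTCNNGAA in 5 of 7, against 8.77%. A 3-unit form stood in 5 of 7 (Chordc1, Hspa8, Hspd1, Hspe1 and Hsph1), against 0.798% of all windows. Both Dnajb1 and Hspb1 held separate 2-unit forms. The stretches below show the match nearest to the gene start for Hsph1, Chordc1 and Dnajb1, whose levels correlated with each other between animals at both weeks, and for the shared control region of the mitochondrial pair, with the matching bases in capitals.
Hsph1: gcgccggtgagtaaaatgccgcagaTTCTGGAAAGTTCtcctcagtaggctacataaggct
Chordc1: gcaaccgGAACGTTCGGGAAGATTCCTGAA
Dnajb1: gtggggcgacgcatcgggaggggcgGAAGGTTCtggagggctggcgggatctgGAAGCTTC
Hspe1: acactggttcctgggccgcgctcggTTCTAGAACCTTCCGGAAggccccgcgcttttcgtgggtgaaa
The Hsph1 stretch lies at chr12:10427307-10427367 (+ strand), with its 3-unit match starting at -36 from the gene start. The Chordc1 stretch lies at chr8:23650824-23650853 (+ strand), just inside the transcribed part, and its capitals, which start at 11, hold 4 overlapping 2-unit matches. The Dnajb1 stretch lies at chr19:41431117-41431177 (- strand), with matches starting at -11 and 18. The Hspe1 stretch lies at chr9:64084237-64084304 (+ strand), with its match starting at -65. Hspd1 and Hspe1 are neighbours transcribed away from each other, and their windows shared 211 bases, so the Hspe1 match is also the Hspd1 match, on the other strand and starting at -242 from the Hspd1 start. A match is a description of these letters and was not tested as a binding site. Its part in the levels on the arrays was not tested.

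The first comparison asked what changed between hepatectomy and the end of the study in the same animals. Several cytosolic chaperones were higher at 10w: Cryab and Chordc1 passed the test in 6 of 7 treatments, which were the 6 phenobarbital groups, Hsph1 in 5 and Dnajb1 in 4, while Hspd1 and Hspe1 passed in 1 (MP/PB) and Hspb1 in 0. Cryab rose 2.78-fold to 3.93-fold in the phenobarbital groups, Chordc1 1.43-fold to 1.92-fold. No member fell in any treatment. Of the 7 members, 4 rose in DEN3/PB, where 5.96% of 10910 genes rose, and 2 in DEN30/PB, against 1.01%. In TAA/PB it was 4, against 3.69% of genes, in MP/PB 6, against 3.23%, and in APAP/PB 2, against 3.9%. In MC/PB 4 rose, against 3.58% of genes, and in MC/water 1, against 0.651%. The median change of the 7 members lay between 0.44 and 0.79 in the phenobarbital groups and was 0.18 in MC/water, while that of all genes lay between -0.01 and 0.01. These tests are limma contrasts paired by animal, with Benjamini-Hochberg adjusted p over all genes. Every 10w liver of a treatment lay above every 5w liver for 0.999% of genes in MP/PB to 3.92% in MC/PB. Every animal of a treatment was higher at 10w for 7.97% of genes in MP/PB to 14.5% in MC/PB.

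Cryab, the small heat shock protein alpha-B-crystallin, known from the eye lens and from muscle, had signals from 122 to 3540 over all arrays, a span exceeded among the tested members by Hspb1 (68.2 to 7213). Values are given in animal order, which is the same at both weeks. In DEN3/PB livers Cryab had signals of 947, 576, 577, 447 and 1045 at 10w, against 131, 122, 199, 218 and 134 at 5w. In DEN30/PB livers its signals were 454, 2006, 1384 and 437 at 10w, against 261, 205, 243 and 217 at 5w. TAA/PB livers had 653, 787, 3539.8, 1236 and 646 at 10w, against 506, 254, 787, 371 and 185 at 5w. In DEN3/PB and DEN30/PB every 10w liver lay above every 5w liver, while in TAA/PB the 10w values overlapped the 5w values, with animal 3 highest at both weeks. In MP/PB livers Cryab stood at 312, 1257, 872, 891 and 1988 at 10w, against 222, 313, 286, 501 and 201 at 5w. APAP/PB livers had 844, 1189, 2266 and 1317 at 10w, against 352, 221, 459 and 278 at 5w. The MC/PB values were 547, 1766, 741 and 786 at 10w, against 192, 281, 159.8 and 352 at 5w. The weeks overlapped in MP/PB, where animal 1 at 10w lay below animals 2 and 4 at 5w, and stood apart in APAP/PB and MC/PB. In MC/water livers Cryab had 222, 134, 202 and 346 at 10w, against 179, 219, 133 and 179 at 5w, so the weeks overlapped and animal 2 went down.

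The paired log2 change of Cryab was 1.98 ± 0.36 in APAP/PB livers (adjusted p = 0.000754), 1.96 ± 0.33 in DEN3/PB livers (adjusted p = 0.000174) and 1.80 ± 0.36 in DEN30/PB livers (adjusted p = 0.00742). It was 1.77 ± 0.36 in MC/PB livers (adjusted p = 0.00253), 1.57 ± 0.33 in MP/PB livers (adjusted p = 0.00281) and 1.48 ± 0.33 in TAA/PB livers (adjusted p = 0.00431). In MC/water livers the change was 0.26 ± 0.36 (adjusted p = 0.845, 95% interval -0.45 to 0.97). All 27 animals given phenobarbital had more Cryab at 10w than at 5w, with changes of 0.35 to 3.16. Within the array sets the changes in phenobarbital groups were 0.99 to 2.27 in set 1 and 1.50 to 2.23 in set 2. The DEN30/PB call was lost without the animal as a block (adjusted p = 0.102), without animal 2 (1.36, adjusted p = 0.133) and without animal 3 (1.60, adjusted p = 0.087), and the MC/PB call without animal 2 (1.52, adjusted p = 0.052).

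**Figure D1:**
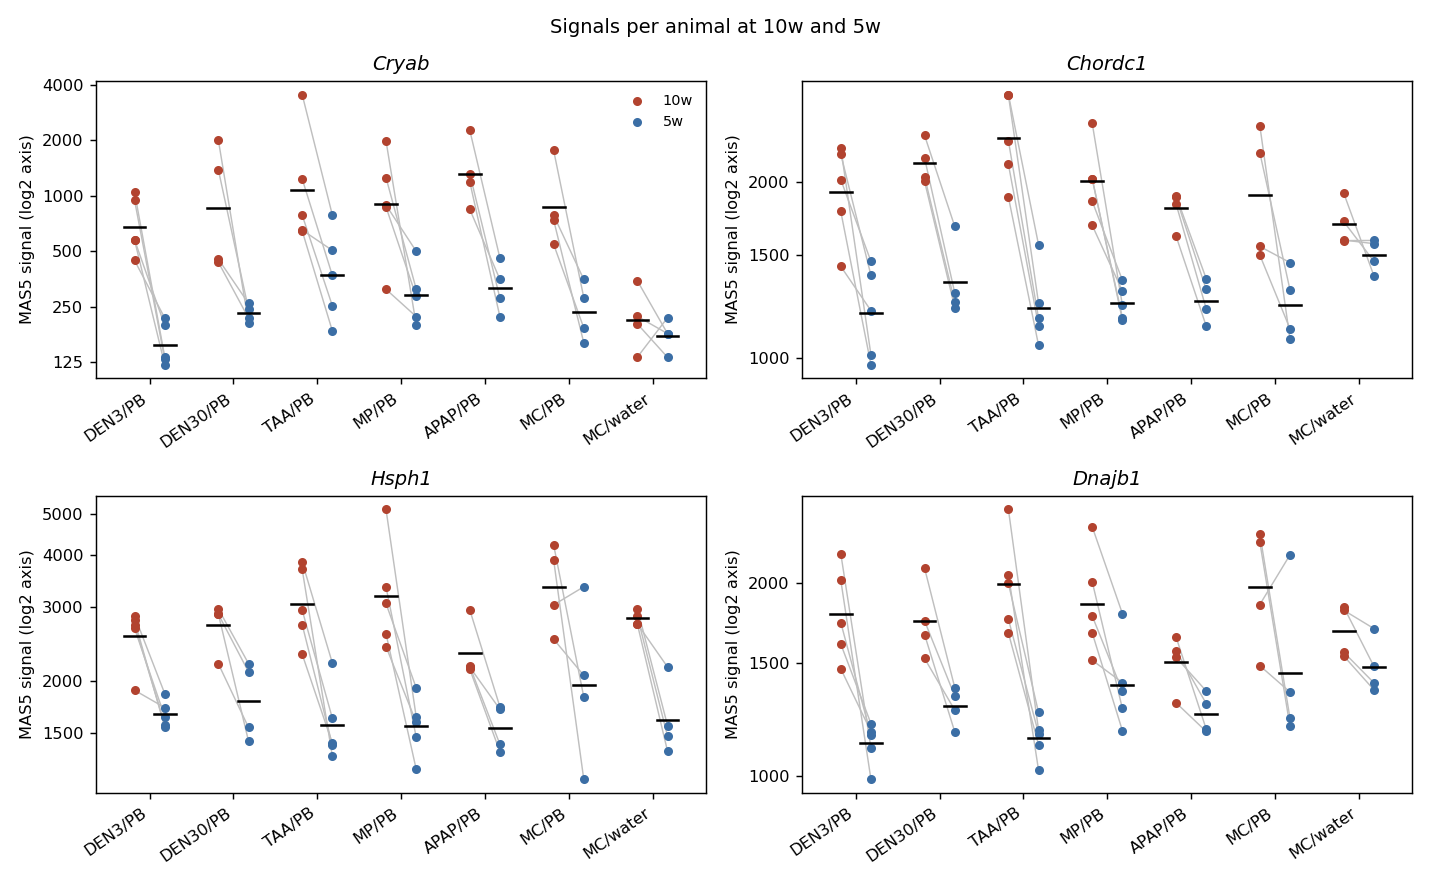
MAS5 signal (vertical log2 axis) of Cryab, Chordc1, Hsph1 and Dnajb1 in every liver, by treatment, with 10w in red at the left and 5w in blue at the right of each treatment. Grey lines join the samples of an animal and black bars are geometric means. Cryab lay between 312 and 3540 in phenobarbital livers at 10w, and between 134 and 346 in MC/water livers.

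Chordc1 encodes a zinc-binding HSP90 co-chaperone, and its signals lay in a narrower range than those of Cryab. In DEN3/PB livers Chordc1 had signals of 1434, 2283, 1779, 2227 and 2016 at 10w, against 1205, 1013, 975, 1384 and 1462 at 5w. DEN30/PB livers had 2001, 2038, 2193 and 2397 at 10w, against 1219.8, 1245, 1292 and 1677 at 5w. In TAA/PB livers the values were 1882, 2815, 2809, 2140.3 and 2348 at 10w, against 1052, 1560.1, 1240.1, 1135 and 1169 at 5w. The TAA/PB animals reached the highest Chordc1 signals of the series, and in DEN30/PB and TAA/PB every 10w liver lay above every 5w liver, which in DEN3/PB failed only through animal 1 at 10w. In MP/PB livers Chordc1 stood at 1851, 1685, 2020.2, 2024 and 2514 at 10w, against 1359, 1302, 1173, 1163 and 1232 at 5w. APAP/PB livers had 1616, 1879.6, 1892 and 1833 at 10w, against 1135, 1309.6, 1367 and 1215 at 5w. The MC/PB values were 2241, 2490.1, 1499 and 1550.3 at 10w, against 1307, 1078, 1122 and 1455 at 5w. The weeks did not overlap in any of these 3 groups. In MC/water livers Chordc1 had 1586, 1710.1, 1913 and 1589.8 at 10w, against 1587, 1463, 1383 and 1568 at 5w, with animal 1 level and the weeks overlapping.

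The change of Chordc1 was 0.94 ± 0.11 in TAA/PB livers (adjusted p = 2.32e-06), 0.68 ± 0.11 in MP/PB livers (adjusted p = 0.000276) and 0.68 ± 0.11 in DEN3/PB livers (adjusted p = 0.00016). It was 0.67 ± 0.12 in DEN30/PB livers (adjusted p = 0.0044), 0.61 ± 0.12 in MC/PB livers (adjusted p = 0.00226) and 0.51 ± 0.12 in APAP/PB livers (adjusted p = 0.00815). In MC/water livers the change was 0.18 ± 0.12 (adjusted p = 0.616, 95% interval -0.07 to 0.42). It was positive in 27 of 27 phenobarbital animals, and within the array sets it was 0.48 to 0.99 in set 1 and 0.55 to 0.92 in set 2. Calls were lost in DEN30/PB without the animal block (adjusted p = 0.0641) and without animal 3 (0.64, adjusted p = 0.0525), in APAP/PB without animal 4 (0.49, adjusted p = 0.0522) and in MC/PB without animal 2 (0.42, adjusted p = 0.0789).

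Hsph1, a large HSP70 relative that swaps the nucleotide on HSP70, was the member that also rose with plain water. In MC/water livers Hsph1 had signals of 2733, 2848, 2971 and 2726 at 10w, against 2156, 1473, 1562 and 1356 at 5w. MC/PB livers had 4222, 3889, 2513 and 3033 at 10w, against 1829, 1163, 2059 and 3351 at 5w. The weeks did not overlap in MC/water, whereas animal 4 of MC/PB was already high at 5w and was lower at 10w. In MP/PB livers Hsph1 stood at 2413, 3057, 3351, 2589 and 5132 at 10w, against 1593, 1925, 1469, 1231 and 1642 at 5w. TAA/PB livers had 2723, 2949, 3840.4, 2314 and 3689.9 at 10w, against 1404, 1628, 2205, 1419 and 1322 at 5w. In DEN3/PB livers the values were 1898, 2724, 2786, 2667 and 2856 at 10w, against 1725, 1570.3, 1551, 1641 and 1864 at 5w. The weeks stood apart in these 3 groups, with animal 5 of MP/PB the highest of the series at 10w and animal 1 of DEN3/PB low there. DEN30/PB livers had 2196, 2887, 2882 and 2966 at 10w, against 1547, 1434, 2099 and 2198 at 5w. In APAP/PB livers Hsph1 had 2163, 2155, 2950.2 and 2131 at 10w, against 1409, 1709, 1731 and 1353 at 5w. The APAP/PB weeks stood apart and those of DEN30/PB overlapped by 1 pair of values.

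The change of Hsph1 was 1.02 ± 0.17 in MP/PB livers (adjusted p = 0.000256), 0.95 ± 0.17 in TAA/PB livers (adjusted p = 0.000394) and 0.80 ± 0.19 in MC/water livers (adjusted p = 0.0264). It was 0.76 ± 0.19 in MC/PB livers (adjusted p = 0.0115) and 0.61 ± 0.17 in DEN3/PB livers (adjusted p = 0.0159). The values in DEN30/PB, 0.59 ± 0.19 (adjusted p = 0.0875), and APAP/PB, 0.59 ± 0.19 (adjusted p = 0.0515), did not pass. Hsph1 was higher at 10w in 30 of 31 animals. Without the animal as a block the calls in DEN3/PB (adjusted p = 0.0525) and MC/water (adjusted p = 0.0985) were lost. The MC/water call was also lost without animal 2, 3 or 4 (adjusted p = 0.0902, 0.114 and 0.148), that in DEN3/PB without animal 2 or 3 (0.0678 and 0.0679) and that in MC/PB without animal 1 or 2 (0.115, and 0.242 with a change of 0.45). The second Hsph1 probe set had a median signal of 739 at 10w, against 441 at 5w. It changed by 0.50 to 1.08 and passed in 4 of 7 treatments, which did not include MC/water (0.50, adjusted p = 0.294) or MC/PB (0.68, adjusted p = 0.0512).

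Dnajb1, the J-domain protein that delivers unfolded proteins to HSP70, rose by smaller amounts. In TAA/PB livers Dnajb1 had signals of 1757, 1998, 2608, 1672 and 2061 at 10w, against 1164, 1256, 1178, 1118 and 1020.4 at 5w. DEN3/PB livers had 1469.7, 2022, 2224, 1607 and 1735 at 10w, against 1173, 988, 1105, 1207 and 1158 at 5w. The weeks stood apart in both groups. MP/PB livers had 1777, 1515, 2009.9, 1673 and 2449 at 10w, against 1356, 1399, 1274, 1177 and 1793 at 5w. In MC/PB livers the values were 2387, 2319, 1486 and 1851 at 10w, against 1229.8, 1194, 1352 and 2214 at 5w. In these 2 groups the weeks overlapped, in MC/PB because animal 4 was at its highest at 5w. In DEN30/PB livers Dnajb1 stood at 1662, 1525, 1746 and 2109.8 at 10w, against 1171, 1267, 1333 and 1374 at 5w. APAP/PB livers had 1648, 1569, 1532 and 1301 at 10w, against 1183, 1297, 1357 and 1173 at 5w. The MC/water values were 1814, 1539.5, 1836 and 1560.2 at 10w, against 1699, 1363, 1484 and 1398 at 5w. The weeks stood apart in DEN30/PB and overlapped in APAP/PB and MC/water.

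The change of Dnajb1 was 0.79 ± 0.12 in TAA/PB livers (adjusted p = 8.12e-05) and 0.66 ± 0.12 in DEN3/PB livers (adjusted p = 0.000474). It was 0.42 ± 0.12 in MP/PB livers (adjusted p = 0.0355) and 0.44 ± 0.14 in MC/PB livers (adjusted p = 0.0489), and both of these calls were lost without the animal as a block (adjusted p = 0.109 and 0.151). The MC/PB call was also lost with no filter on low signals (0.0614), with all probe sets tested (0.0579), and without animal 1 (0.27, adjusted p = 0.363) or animal 2 (0.27, adjusted p = 0.413), and the change was 0.67 without animal 4 (adjusted p = 0.00387). The MP/PB call was lost without animal 1, 3, 4 or 5, with adjusted p of 0.0606, 0.154, 0.0934 and 0.0971. In DEN30/PB (0.44 ± 0.14, adjusted p = 0.0823), APAP/PB (0.26 ± 0.14, adjusted p = 0.282) and MC/water (0.18 ± 0.14, adjusted p = 0.645) the change did not pass. The second Dnajb1 probe set had a median signal of 1038 at 10w, against 687 at 5w. It changed by 0.20 to 0.82 and passed in 4 of 7 treatments.

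**Figure D2:**
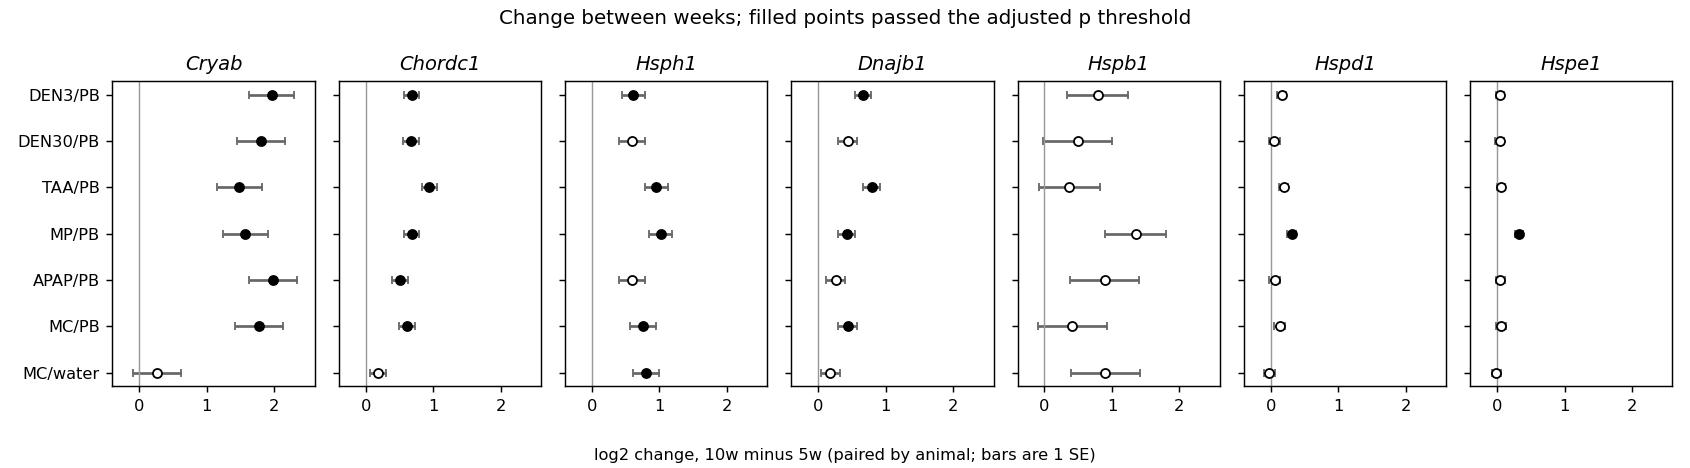
Paired log2 change (horizontal axis, 10w minus 5w) of each chaperone gene in the 7 treatments, with 1 standard error as bars. Filled points passed an adjusted p of 0.05. Cryab sat near 0.26 in MC/water and between 1.48 and 1.98 in the 6 phenobarbital groups, and Hsph1 was filled in MC/water too.

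Hspb1, the small heat shock protein HSP27, passed in no treatment. In MP/PB livers Hspb1 had signals of 331, 902, 326, 529 and 7213 at 10w, against 305, 571, 252, 340.3 and 195 at 5w. MC/PB livers had 420.0, 567, 306 and 238 at 10w, against 184, 167, 170.0 and 925 at 5w. MC/water livers had 1136, 389, 619.6 and 443 at 10w, against 428, 185, 343 and 317 at 5w. Animal 5 of MP/PB at 10w and animal 4 of MC/PB at 5w stood far above the other animals of their groups. Both animals were also the highest of their group and week for the other 6 members. In the other groups Hspb1 lay between 148 and 1010 at 10w, against 68.2 and 638 at 5w, with both extremes in TAA/PB. The largest change, 1.35 ± 0.45 in MP/PB, had an adjusted p of 0.0726, and the others lay between 0.37 and 0.90. The MP/PB change was 0.42 without animal 5 (adjusted p = 0.58), and it passed without animal 1 (1.65, adjusted p = 0.0443). The MC/PB change was 1.16 without animal 4 (adjusted p = 0.245), against 0.41 with it. Hspb1 was higher at 10w in 28 of 31 animals.

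The mitochondrial pair Hspd1 and Hspe1 changed little and passed in MP/PB alone. In MP/PB livers Hspd1 had signals of 15542, 19769, 18281, 16501 and 22298 at 10w, against 13169.9, 17969.8, 15079, 15026 and 13349 at 5w. Hspe1 there had 16387, 16676, 17071, 18192 and 23771 at 10w, against 14252, 14333, 14476, 16015 and 13592 at 5w. The weeks overlapped for Hspd1 and stood apart for Hspe1, and animal 5 was the highest for both at 10w. The change was 0.31 ± 0.07 for Hspd1 (adjusted p = 0.00575) and 0.33 ± 0.06 for Hspe1 (adjusted p = 0.00123). Without animal 5 the Hspd1 call was lost (0.20, adjusted p = 0.0814), and the Hspe1 change was 0.21 and still passed (adjusted p = 0.0182). In DEN3/PB the weeks stood apart for Hspd1, with 0.16 ± 0.07 (adjusted p = 0.132). In the other phenobarbital groups the changes were 0.05 to 0.19 for Hspd1 and 0.04 to 0.06 for Hspe1, and in MC/water they were -0.02 and -0.01. Over all arrays Hspd1 spanned only 13170 to 22298 and Hspe1 12974 to 23771.

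**Figure D3:**
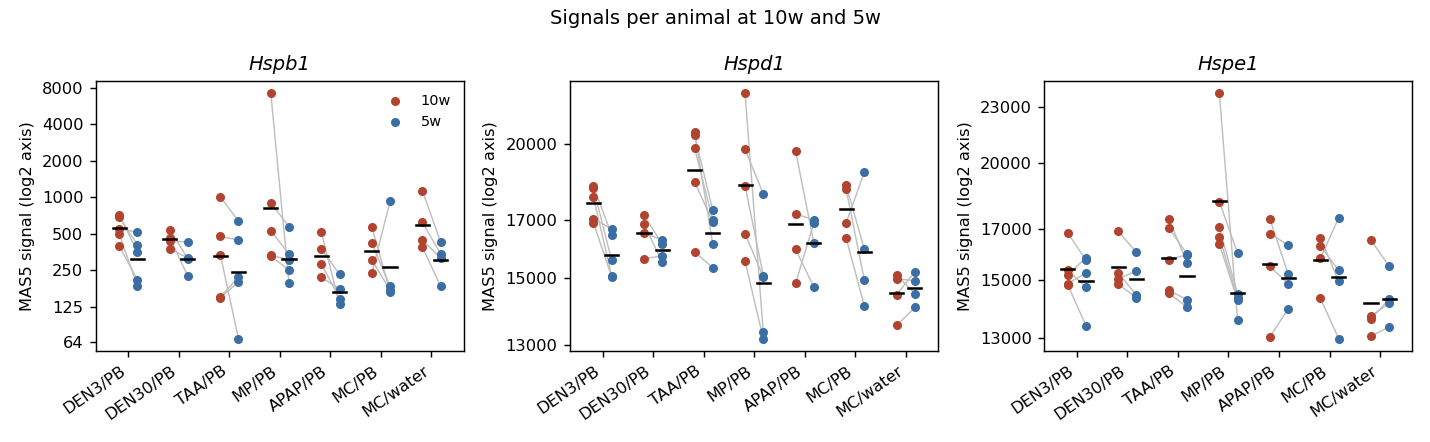
MAS5 signal (vertical log2 axis) of Hspb1, Hspd1 and Hspe1 in every liver, by treatment, with 10w in red at the left and 5w in blue at the right. Grey lines join the samples of an animal and black bars are geometric means. Animal 5 of MP/PB at 10w had the highest signal of all 3 genes, 7213 for Hspb1.

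As an alternative chosen after seeing the data, the mean change of the 6 phenobarbital groups was tested over their 27 animals, in a fit that called 35.1% of genes. All 7 members passed in it. The changes were 1.76 ± 0.14 for Cryab, 0.75 ± 0.07 for Hsph1, 0.72 ± 0.20 for Hspb1 and 0.68 ± 0.05 for Chordc1 (limma adjusted p = 2.56e-11, 1.04e-09, 0.00458 and 2.08e-12). They were 0.50 ± 0.05 for Dnajb1, 0.15 ± 0.03 for Hspd1 and 0.10 ± 0.03 for Hspe1 (adjusted p = 5.96e-09, 0.000135 and 0.00472).

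Hspa8, the constitutive HSP70, and Hsp90aa1, the inducible cytosolic HSP90, were read only by probe sets that carry another symbol as well (Haus8l2 beside Hspa8 and a pseudogene beside Hsp90aa1), so their signals may hold more than 1 transcript. The probe set of Hspa8 and Haus8l2 spanned 19695 to 33605 at 10w, with a median of 24810.1, against 12579 to 21579 at 5w, with a median of 16171. It was higher at 10w in 31 of 31 animals, and the weeks overlapped over all treatments. In the fit of all probe sets it rose by 0.43 to 0.75 in all 7 treatments, plain water included (0.44, adjusted p = 0.04). The dimmer Hsp90aa1 probe set had a median of 6432 at 10w, against 3595 at 5w, was higher in 31 of 31 animals, and rose in the 6 phenobarbital groups by 0.65 to 1.02, while MC/water had 0.57 (adjusted p = 0.109). The brighter one, with a median of 15025 at 10w, against 10714 at 5w, passed in 5 of 7 treatments and had 0.46 in DEN30/PB (adjusted p = 0.0716) and 0.43 in MC/water (adjusted p = 0.114). In that fit 8.15% of 19858 probe sets were called in DEN3/PB, 1.32% in DEN30/PB and 5.63% in TAA/PB. It was 4.7% in MP/PB, 5.12% in APAP/PB, 4.22% in MC/PB and 0.826% in MC/water.

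Other genes of protein folding were counted in lists, of which each gene was tested in the paired fit of 10910 genes. The share of all genes that rose was given above for each treatment, 0.651% in MC/water to 5.96% in DEN3/PB. The share that fell was 4.66% in DEN3/PB, 1.13% in DEN30/PB, 3.5% in TAA/PB and 3.24% in MP/PB. In APAP/PB 3.37% fell, in MC/PB 2.48% and in MC/water 0.669%. Of 16 other cytosolic heat shock genes, 5 rose in DEN3/PB, TAA/PB and MP/PB, 3 in MC/PB, 1 in APAP/PB and 0 in DEN30/PB and MC/water. The constitutive HSP90 gene Hsp90ab1 rose in 5 treatments, by 0.33 ± 0.08 in DEN3/PB to 0.43 ± 0.09 in MC/PB, the small heat shock gene Hspb8 in 3, by 0.51 to 0.60, and the HSP70 co-chaperone Bag3 in the same 3, by 0.36 to 0.45. The stress-inducible HSP70 gene Hspa1a had 2.10 ± 0.66 in MP/PB (adjusted p = 0.0509) and passed in no treatment. Heat shock factor gene Hsf1 stood between -0.12 and 0.17 and passed in none, and Hsf2 fell in DEN3/PB (-0.25 ± 0.06, adjusted p = 0.00741). Of 18 co-chaperones of HSP70 and HSP90, 6 rose in MP/PB, 4 in MC/PB, 3 in TAA/PB, 2 in DEN3/PB and APAP/PB and 0 in the other 2. Ahsa1, which speeds up HSP90, rose in 5 treatments by 0.26 to 0.32, and Stip1, which joins HSP70 to HSP90, rose in 4 by 0.40 to 0.61. The cytosolic chaperonin TRiC, with prefoldin, had 7 of 12 genes higher in MC/PB, 5 in MP/PB, 4 in TAA/PB, 3 in DEN3/PB and APAP/PB, 1 in DEN30/PB and 0 in MC/water, with Cct5 at 0.42 ± 0.07 in MC/PB. The median change of each of these 3 lists lay between 0.03 and 0.30 in every treatment.

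Folding genes of other compartments were counted in the same way, and the counts were not tested against those of the cytosolic lists. Of 13 other mitochondrial chaperones and proteases, 2 rose in MP/PB and MC/PB (Clpp and Dnaja3), 1 in DEN3/PB (Grpel2) and 0 in the rest, and the unfoldase Clpx fell in 5 treatments, by 0.47 ± 0.07 in APAP/PB to 0.30 ± 0.07 in DEN30/PB. Of 14 endoplasmic reticulum chaperones, 5 rose in MP/PB, 3 in TAA/PB, 2 in MC/water (Manf and Hspa5), 1 in DEN3/PB, APAP/PB and MC/PB (Dnajb9) and 0 in DEN30/PB. Dnajb9, a J-domain partner of the reticulum's HSP70, rose by 0.85 ± 0.12 in DEN3/PB.

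Other markers moved with the weeks as well. Among 14 genes for cold-inducible RNA-binding proteins and the circadian clock, Cirbp, a protein induced by mild cold, fell in DEN3/PB, TAA/PB, MP/PB and APAP/PB by 0.40 to 0.65, Rbm3 in DEN3/PB, TAA/PB, MP/PB and MC/PB by 0.39 to 0.63, and the clock gene Per2 in DEN3/PB, DEN30/PB and MC/PB by 0.64 to 0.74. Cry1 fell in TAA/PB, MP/PB and APAP/PB, Per1 rose in DEN3/PB and Nr1d2 in MC/water. The summed signal of these genes was 7094 to 8014 in MC/PB livers at 10w, against 8537 to 9637 at 5w, and 8483 to 9193 in MC/water livers at 10w, against 8350 to 9319 at 5w. Of the red-cell genes, 2 of 2 fell in the 5 groups given an initiator and 1 (Alas2) in MC/water. The sum of the red-cell genes in MP/PB livers was 9421 to 21990 at 10w, against 23300 to 34120 at 5w. The endothelial receptor Kdr fell in all 7 treatments, by 0.29 to 0.45. Of the other endothelial genes, Lyve1 fell in DEN3/PB, APAP/PB and MC/PB, and Stab2 in TAA/PB, MC/PB and MC/water. Pecam1 passed in none and went both ways, from -0.26 in MC/water to 0.37 in DEN30/PB. The sum of the endothelial list in MC/PB livers was 6732 to 8042 at 10w, against 9037 to 10650 at 5w. Of 7 stellate cell genes, Dcn fell in DEN3/PB, TAA/PB and MP/PB and Col3a1 in MP/PB. Of 3 bile duct genes tested, Epcam rose in DEN3/PB, TAA/PB, APAP/PB and MC/PB by 0.44 to 0.67 and Spp1 fell in APAP/PB, while Krt7 was under a signal of 100 on all arrays. Their part in the chaperone changes was not tested, and in these bulk samples more cells of a type and more RNA per cell cannot be told apart. Of 3 Kupffer cell and 5 cycling cell genes 0 passed in any treatment, and of 2 smooth muscle genes Tagln rose and Myh11 fell in MP/PB. Of the markers of muscle, a tissue rich in Cryab, 0 of 5 skeletal and heart muscle genes passed the filter, Acta1, Mb and Myh4 were under 100 on all arrays, and the sum in MC/PB livers was 65.5 to 156 at 10w, against 102 to 188 at 5w.

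The second comparison asked whether phenobarbital without an initiator moved the chaperones relative to plain water at the same week. At 10w Cryab was higher, which was 1 of 7 members, where 1.59% of 10546 genes were higher. Its signals at 10w were 547, 1766, 741 and 786 in MC/PB livers, against 222, 134, 202 and 346 in MC/water livers, and every MC/PB liver lay above every MC/water liver. The difference was 1.90 ± 0.52, or 3.72-fold (limma adjusted p = 0.0457). That call was lost with no filter (adjusted p = 0.0634), with all probe sets tested (0.0566), within set 1 (1.48, adjusted p = 0.547) and set 2 (2.31, adjusted p = 0.15), and when any 1 animal but MC/water animal 4 was left out, with differences of 1.56 to 2.11 and adjusted p up to 0.187. Hspd1 signals at 10w were 16338, 18141, 18304 and 16881 in MC/PB livers, against 15091, 14976, 14474 and 13545 in MC/water livers. The groups did not overlap, and the difference of 0.26 ± 0.10 did not pass (adjusted p = 0.172). Of 10546 genes, 5.05% likewise had every MC/PB liver above every MC/water liver at 10w. The other 5 members differed by -0.67 to 0.25.

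At 5w, after 1 week of phenobarbital, 0 of 7 members passed in limma, where 1.26% of genes did. An unadjusted p under 0.05 was reached by 1138 of 10491 genes and by 1 member. That was Chordc1, with signals of 1307, 1078, 1122 and 1455 in MC/PB livers, against 1587, 1463, 1383 and 1568 in MC/water livers, which overlapped, and a difference of -0.28 ± 0.13 (adjusted p = 0.407). Cryab differed by 0.38 ± 0.30 (adjusted p = 0.736, 95% interval -0.21 to 0.98). Taking all 6 phenobarbital groups together, an alternative chosen after seeing the data, Cryab was higher than in MC/water at 10w by 2.00 ± 0.39 (limma adjusted p = 0.0011) and Hspd1 by 0.28 ± 0.07 (adjusted p = 0.0142), where 8.48% of genes were called. At 5w no member passed in that fit, where 4.23% of genes did.

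Whether the change between weeks itself differed between MC/PB and MC/water was tested as an interaction. In it 0 of 7 members passed in limma, and 0.119% of genes were called. An unadjusted p under 0.05 was reached by 2 members and by 1032 of 10910 genes. The difference in change was 1.51 ± 0.52 for Cryab (adjusted p = 0.306, 95% interval 0.50 to 2.52) and 0.44 ± 0.18 for Chordc1 (adjusted p = 0.415, 95% interval 0.09 to 0.78). For Hsph1 it was -0.03 ± 0.26 (95% interval -0.55 to 0.49). With the mean of the 6 phenobarbital groups in place of MC/PB it was 1.50 ± 0.39 for Cryab (adjusted p = 0.102) and 0.51 ± 0.13 for Chordc1 (adjusted p = 0.105), where 0.33% of genes were called. A difference in change between phenobarbital and plain water was thus not called for Cryab or Chordc1.

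Among the lists, St13, a co-chaperone of HSP70, and Ptges3, one of HSP90, were higher in MC/PB than in MC/water livers at 10w by 0.29 ± 0.08 (adjusted p = 0.0416) and 0.31 ± 0.07 (adjusted p = 0.0138), 2 of 18 in their list, and so was the TRiC subunit Cct5, by 0.43 ± 0.11 (adjusted p = 0.0258), 1 of 12. In the lists of other cytosolic heat shock genes, other mitochondrial chaperones and endoplasmic reticulum chaperones 0 passed at either week. The epithelial marker Epcam was higher in MC/PB livers by 1.26 ± 0.24 at 10w and by 0.80 ± 0.15 at 5w. Krt19 and Spp1, also of the bile duct list, did not pass, with -0.27 ± 0.24 and -0.31 ± 0.30 at 10w. At 5w they had 0.16 ± 0.31 and -0.34 ± 0.32. The bile duct sum was 1343 to 2182 in MC/PB livers, against 665 to 1153 in MC/water livers, at 10w. The part of these genes in the Cryab difference was not tested.

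The third comparison set each initiator against MC/PB, which shares its 4 control livers among all 5 initiators. No member passed at either week: 0 of 70 tests passed in limma, 8 had an unadjusted p under 0.05, and the smallest adjusted p was 0.598. Over all genes an unadjusted p under 0.05 was reached by 484 of 10546 for DEN3/PB at 10w to 849 of 10491 for MP/PB at 5w. At 10w 0 of 7 members passed for DEN3/PB, where 0.019% of genes did, for DEN30/PB (0.0284% of genes), TAA/PB (0.00948%), MP/PB (0.0853%) and APAP/PB (0.0664%). At 5w 0 of 7 passed for DEN3/PB, where 0.0381% of genes did, for DEN30/PB (0.114%), TAA/PB (0.0191%), MP/PB (0.0572%) and APAP/PB (0.0%). Differences lay between -0.61 and 1.14, and both extremes were Hspb1, in APAP/PB at 5w and in MP/PB at 10w. Without animal 4 of MC/PB the first was -0.05, and without animal 5 of MP/PB the second was 0.37. All 5 Hspb1 differences of 5w lay between -0.61 and 0.20. Without animal 4 of MC/PB they lay between -0.05 and 0.77, and 0 were called.

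Hsph1 differed from MC/PB by -0.52 to -0.07 over the 10 comparisons and Dnajb1 by -0.39 to 0.01, none of which passed. At 5w these values rested on animal 4 of MC/PB, which had the highest signal of that group for both genes. The 5 differences of 5w were -0.34 to -0.13 for Hsph1 and -0.36 to -0.06 for Dnajb1, and without that animal they were -0.09 to 0.13 and -0.16 to 0.14. At 10w Hsph1 had signals of 2163, 2155, 2950.2 and 2131 in APAP/PB livers, against 4222, 3889, 2513 and 3033 in MC/PB livers. The groups overlapped through animal 3 of each, and the difference was -0.52 ± 0.19 (adjusted p = 0.598, 95% interval -0.89 to -0.15). At 5w Dnajb1 had 1173, 988, 1105, 1207 and 1158 in DEN3/PB livers, against 1229.8, 1194, 1352 and 2214 in MC/PB livers, a difference of -0.36 ± 0.13 (adjusted p = 0.659), or -0.16 without MC/PB animal 4 (adjusted p = 1.0). That animal was the highest of both groups there, and the groups overlapped. Cryab had 506, 254, 787, 371 and 185 in TAA/PB livers at 5w, against 192, 281, 159.8 and 352 in MC/PB livers, with overlap and a difference of 0.61 ± 0.29 (adjusted p = 0.873, 95% interval 0.04 to 1.18), or 0.35 without TAA/PB animal 3. Without MC/PB animal 4 the Cryab difference was 0.79 (limma adjusted p = 0.836).

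For the change between weeks, each initiator against MC/PB, 0 of 35 member tests passed in limma, and 1 had an unadjusted p under 0.05. Over all 10910 genes such an unadjusted p was reached by 514 for DEN30/PB to 925 for MP/PB. The shares of genes called were 0.0275% for DEN3/PB, 0.00917% for DEN30/PB, TAA/PB and APAP/PB and 0.0% for MP/PB. The smallest p was that of Hspe1 in MP/PB, with 0.27 ± 0.09 (adjusted p = 0.425, 95% interval 0.09 to 0.45), or 0.15 without MP/PB animal 5. The 95% intervals of these differences ran from -1.37 to 2.28 over all members, both for Hspb1. Without MC/PB animal 4 the differences of Hsph1 ran from -0.48 in APAP/PB to -0.04 in MP/PB. Those of Dnajb1 then ran from -0.41 in APAP/PB to 0.11 in TAA/PB. None of them passed (limma adjusted p of 0.747 or more).

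Ordered by mean level over the 14 groups, 10w groups held 6 or 7 of the top 7 ranks of each member. The order describes the same values as the change between weeks. The share of all genes with such an order is not given here. For Hsph1, Chordc1, Hspb1 and Dnajb1 the 7 groups of 10w filled the top 7 ranks. For Cryab 6 of the top 7 were 10w groups, led by APAP/PB at 10.39 ± 0.58 (log2 level, SD, n = 4) and TAA/PB at 10.11 ± 1.01 (n = 5), and MC/water at 10w was in rank 12 with 7.91 ± 0.50 (n = 4). Hsph1 was highest in MC/PB at 10w, with 11.72 ± 0.34, and Chordc1 and Dnajb1 in TAA/PB at 10w, with 11.23 ± 0.25 and 10.98 ± 0.25. For Hspd1 and Hspe1 MC/water at 10w was the lowest of all groups, with 13.83 ± 0.07 and 13.79 ± 0.15. For every member all 13 pairs of neighbouring groups overlapped in their animals' values, so adjacent ranks do not differ beyond their spread.

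Some of the members also varied together from animal to animal within groups. Over 31 animals at each week, after the means of group and array set were removed, 42 correlations were computed, with p from 100000 permutations within group and set, two-sided, and adjusted over the 42. At 10w Hsph1, Chordc1 and Dnajb1 correlated with each other. Pearson's r was 0.770 for Hsph1 and Chordc1 (Spearman's rho 0.813), 0.770 for Hsph1 and Dnajb1 (rho 0.743) and 0.783 for Chordc1 and Dnajb1 (rho 0.748). The permutation p of r was 0.0027, 0.00158 and 0.00353 (adjusted 0.0237 each), and that of rho 0.0005, 0.00128 and 0.00287 (adjusted 0.0105, 0.0134 and 0.0201). Without the 2 animals farthest from the median of the first gene r was 0.791, 0.730 and 0.792. Cryab was not part of this trio, with r of 0.379, 0.313 and 0.093 to Hsph1, Chordc1 and Dnajb1, and its highest r was 0.623 to Hspd1 (rho 0.604, permutation p 0.0127 and 0.0244, adjusted p = 0.0593 and 0.102).

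At 5w the same 3 pairs passed again. For Hsph1 and Chordc1 r was 0.676 (rho 0.695, permutation p 0.00018 and 0.00046, adjusted 0.00756 and 0.0105), for Hsph1 and Dnajb1 0.813 (rho 0.751, permutation p 0.00395 and 0.00084, adjusted 0.0237 and 0.0118) and for Chordc1 and Dnajb1 0.596 (rho 0.686, permutation p 0.00315 and 0.00341, adjusted 0.0237 and 0.0205). Chordc1 and Hspb1 also passed, with r of 0.716 (rho 0.735, permutation p 0.00317 and 0.00187, adjusted 0.0237 and 0.0157). Without the 2 farthest animals these r were 0.652, 0.604, 0.599 and 0.692. With group means alone removed, and array sets left in, the Chordc1 and Hspb1 pair had r of 0.440 (rho 0.448) and did not pass (adjusted p = 0.113 and 0.102), while the 3 pairs among Hsph1, Chordc1 and Dnajb1 passed at both weeks. Hspb1 and Dnajb1 passed there at 5w, with r of 0.592 (rho 0.589, adjusted permutation p = 0.0439 and 0.0195). Of the 21 pairs of a week, 21 were positive at 10w and 18 at 5w. Cryab, Hspd1 and Hspe1 were not in any passing pair. The shares of positive and of passing pairs among other genes are not given here.

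**Figure D4:**
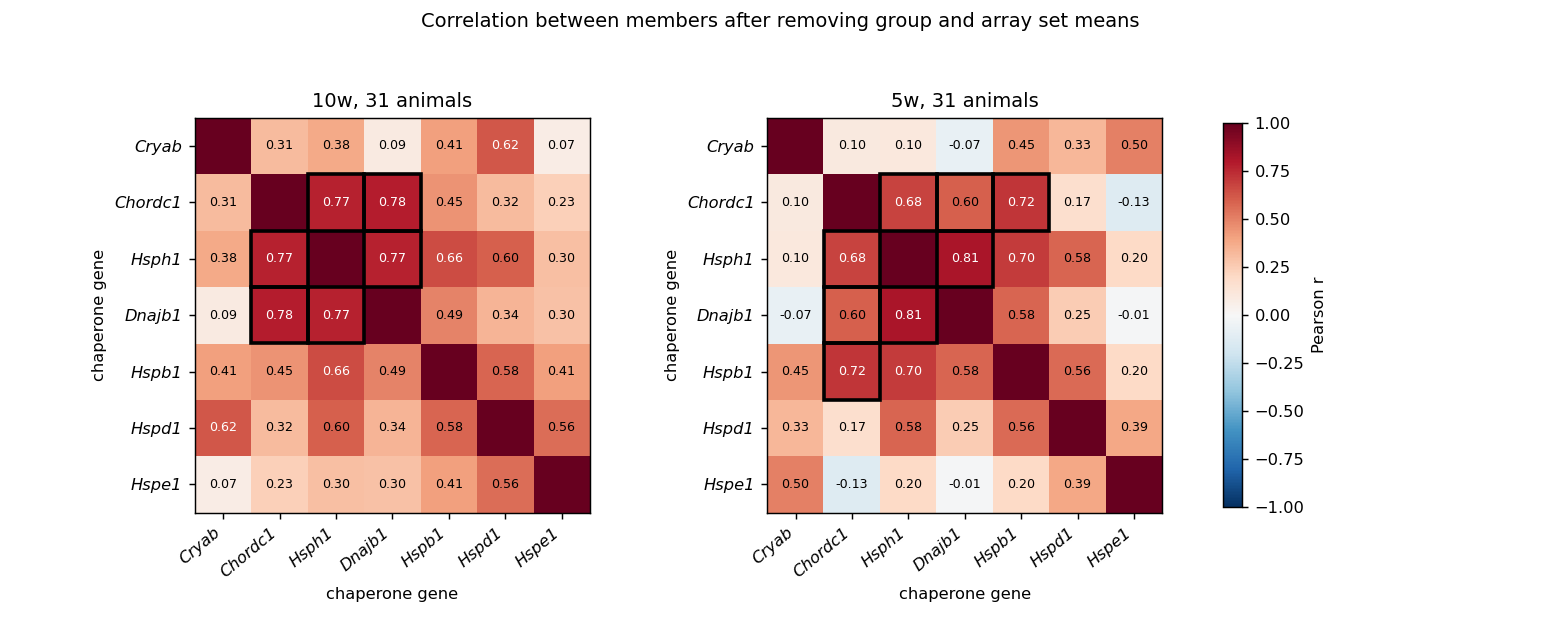
Pearson r between the 7 chaperone genes over 31 animals, at 10w on the left and 5w on the right, after group and array set means were removed. Outlined squares passed the adjusted permutation test for r and rho. The block of Chordc1, Hsph1 and Dnajb1 is outlined at both weeks, at 0.77 or more at 10w.

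Genes outside the list that followed each member most closely were ranked by Pearson r over the residuals of all 62 arrays, given as a description, since arrays of an animal are paired. For Hsph1 they were the HSP70 partner Dnaja1 (0.74), Stip1 (0.74) and Hspb8 (0.73). For Dnajb1 they were Hspa1a (0.80), the stress-inducible zinc finger gene Zfand2a (0.74) and Dnaja1 (0.72), and for Hspb1 they were Dnaja4 (0.71), Zfand2a (0.68) and Hspa1a (0.68). Chordc1 was followed by Iars1 (0.67), Dnajc5 (0.66) and Slk (0.65). Cryab was followed by the transcription factor gene Sox4 (0.78), Ttc39a (0.77) and Bin1 (0.75), none of which is a chaperone. Hspd1 was followed by the TRiC subunit Cct7 (0.78), Mrps2 (0.76) and Gspt1 (0.75), and Hspe1 by Ndufc2 (0.64), Emc6 (0.63) and Mrpl15 (0.63).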

How the data were processed

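RNA from both liver samples of 31 rats was measured on Affymetrix arrays. The authors deposited signal intensities, on a linear scale, of 31099 probe sets. They come from MAS5 5.0, per the submitters' processing notes, and their scaling was kept. The array model is not given in the sources used here. Groups, doses and times were taken from the labels. Of the probe sets, 20826 had 1 gene symbol, 436 several and 9780 none, with 57 controls.

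An offset of 25 was added before log2. Probe sets with a signal of 100 or more on at least 4 arrays of the fit were kept, and a gene was tested on whichever of its probe sets had the highest mean. This gave 10910 genes over both weeks, 10546 at 10w alone and 10491 at 5w alone. Contrasts were fitted in limma 3.58.1 under R 4.3.3 with a trended eBayes, two-sided, with Benjamini-Hochberg adjustment over all genes and a threshold of 0.05. Comparisons within a week used the 31 arrays of that week, and comparisons between weeks used all 62 with the animal as a block. The series' design text says that both weeks come from the same animals, and as a check of the numbers the residuals of the 2 arrays of an animal correlated at 0.21 to 0.392, against -0.021 to 0.104 for the best other number of the same group and array set, so that 31 of 31 animals matched their own number best. Intervals (95%) are from the standard error and the normal distribution. Animals of a group are the replicates. Within a week, where a number names different animals, all 4 pairs correlated above 0.1 in 4 of 12 comparisons, and the replicate block was run as an alternative. Array sets were taken from the first component of the residuals within groups (11.85% of the variation), with the members left out. Correlations were computed with NumPy 2.4.6 and SciPy 1.17.1. The steps were tested on simulated data.

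The members, the gene lists, the marker lists and the rule for naming genes were chosen with earlier results of these data known. Named genes are the members, up to 4 passing genes with the smallest p of a list in a comparison, the 3 genes most like each member, and further list genes such as Hspa1a and Hsf1, which were picked after their values were seen. The alternatives tried were leaving out the offset or the filter, quantile normalization, testing all probe sets, array set as a block, within each array set, with or without the replicate block, only the groups compared, leaving out each animal and, for the correlations, removing group means alone. The mean of the 6 phenobarbital groups was added after seeing the data. Promoter windows are RefSeq's (GRCr8), and no genome coordinates of the array were used.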

Additional observations from a re-analysis of the deposited data

Results flagged for a closer look

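Single livers stood apart from the rest of their group by Dixon's criterion in 6 of the 98 combinations of member, treatment and week, on the scale of log2(signal + 25). Chance flags about 1 in 20 such groups. The interactions with week were all tested, and 0 of 42 passed.

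Hsph1 had 3 such livers, all at 10w. Animal 1 was the lowest of DEN3/PB with 10.91, against 11.39 to 11.49 in the others, and animal 1 was the lowest of DEN30/PB with 11.12, against 11.51 to 11.55. Animal 3 was the highest of APAP/PB with 11.54, against 11.07 to 11.10. Hspb1 reached 9.89 in animal 4 of MC/PB at 5w, against 7.58 to 7.70 in the others. Hspe1 reached 14.04 in animal 2 of DEN3/PB at 10w and 14.54 in animal 5 of MP/PB at 10w.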

How the results depend on the processing

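Counts of members that passed moved in these cases. For MC/PB against MC/water at 10w (1 in the report) 0 passed with no filter, with all probe sets tested and within either array set, and 2 with the mean of the 6 phenobarbital groups. Between the weeks, set 1 alone gave 0 in DEN30/PB, MP/PB, APAP/PB, MC/PB and MC/water and 1 in TAA/PB, and set 2 alone gave 0 in DEN30/PB, MC/PB and MC/water and 1 in DEN3/PB and APAP/PB, in fits with 2 to 3 animals a group. With no replicate block, 0 passed in DEN30/PB and MC/water, and the cause was not tested. The mean of the 6 phenobarbital groups gave 7 in place of the 4 of MC/PB. Leaving out 1 animal gave 1 to 2 in APAP/PB, 3 to 4 in DEN3/PB, 0 to 2 in DEN30/PB, 0 to 4 in MC/PB, 0 to 1 in MC/water, 4 to 6 in MP/PB, 4 in TAA/PB and 0 to 1 for MC/PB against MC/water at 10w, and 0 in every other comparison. The replicate block within a week changed no call. Small changes between weeks turned sign in 9 values, none past the threshold: Hspb1 in TAA/PB without animal 5 (-0.02, range without one animal -0.02 to 0.58) and in MC/PB within set 2 (-0.11), Hspd1 in APAP/PB within set 2 (-0.03) and without animal 3 (-0.02, range -0.02 to 0.14) and in MC/water without animal 3 (0.00, range -0.04 to 0.00), and Hspe1 in APAP/PB within set 2 (-0.03) and in MC/water with quantile normalization (0.00), within set 2 (0.01) and without animal 4 (0.00, range -0.05 to 0.00). Counts over all genes between weeks were 94 in DEN3/PB within set 2 (1158 in the report's fit), and within set 1 they were 1 in DEN30/PB (233), 33 in TAA/PB (785), 26 in MP/PB (705), 29 in APAP/PB (794), 45 in MC/PB (662) and 4 in MC/water (144). With no replicate block they were 315 in DEN3/PB, 0 in DEN30/PB, 193 in TAA/PB, 146 in MP/PB, 160 in APAP/PB, 143 in MC/PB and 5 in MC/water. The mean of the 6 phenobarbital groups gave 3828 in place of the 662 of MC/PB. Of 7 correlated pairs, 6 passed with group means alone removed, and 1 other was added. Of 742 values of single members under the alternatives, 654 kept direction and side of the threshold, 71 lost the call, 8 gained it and 9 turned. Signals of one gene rest on 4 or 5 animals a group, which limits what can be detected, and signals near 100 lie close to background.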
